A study of Mus musculus with 4 samples.

Results

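Caspases are cysteine proteases that cut their substrates after aspartate. Initiator caspases are activated on multiprotein platforms, executioner caspases then dismantle the cell during apoptosis, and inflammatory caspases mature interleukin 1 family cytokines and open membrane pores in pyroptosis. In T cells, caspases take part in apoptosis, and caspase-8 is also needed for the cells to expand after stimulation. The 6 caspase genes described here were chosen by gene symbol: the initiators Casp2, Casp8 and Casp9, the executioner Casp6, and the inflammatory Casp1 and Casp4. All of their probes on an Illumina bead array were taken, 14 of the 45281 probes on the array, and the 6 genes are of 19057 that the probe annotation names. Of these, 10 exceeded an intensity of 16, used as a floor for dim signal, on at least 1 array, and every one of the 6 genes had such a probe.

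The RNA came from CD4+ CD62L- CD44+ T cells, an effector memory phenotype, sorted from the spleen and lymph nodes of C57BL/6 mice. The dKO group (2 arrays) came from mice that lacked MEKK2, the kinase encoded by Map3k2, in all cells and carried MEKK3F/-, 1 floxed and 1 null allele of Map3k3, with Cre expressed from the Lck promoter, which is active in T cells. Cells outside the T lineage of these mice therefore keep the floxed allele. The WT group (2 arrays) came from C57BL/6 wild type mice, and whether they carried Cre, the age of the animals and how many were used per array are not given in the sources used here. The study's title asks how the 2 kinases act on helper T cell differentiation driven by TGF-beta. Separate animals for the 2 arrays of a group are not stated in the labels, so p-values measure only the spread between arrays and that may be technical.

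Each array had 12763 to 13218 probes above the floor. The only Map3k3 probe above it read 204 and 246 on the dKO arrays against 311 and 387 on the WT arrays, and both Map3k2 probes were below it. Where these probes lie relative to the deleted parts is not known here, so they check no label. The T cell marker list had 7 of its 9 genes above the floor, with a summed normalized intensity of 16592 to 19890.5 in dKO and 18109 to 18989 in WT, and Cd5 at the floor on all arrays. Cd4 itself read 151 and 84.4 in dKO and 105 and 141 in WT. Summed markers of CD8 and NK cells and of erythroid cells separated the groups, and those of myeloid and of B cells overlapped. The CD8 and NK cell list (6 of 11 genes above the floor, with Cd8a, Ncr1, Gzmb and Eomes at the floor on all arrays) summed to 1933 and 2276 in dKO and to 3221 and 2778 in WT. In that list Cd8b1 and Prf1 overlapped between the groups, at log2 differences (dKO minus WT) of −0.16 and −0.21. Nkg7, Klrb1c, Klrd1 and Klre1 did not, at −0.61, −1.15, −1.19 and −1.74. Klrb1c and Klre1 were under the floor on both dKO arrays, so the floor limits the size of their differences. Nkg7 overlapped on the deposited scale (663 and 1650 in dKO against 1264 and 1971 in WT). The myeloid and dendritic list (14 of 18 genes, with Itgam, Itgax and Flt3 at the floor) summed to 922 and 2422 in dKO and to 1292 and 1529 in WT. The erythroid list (3 of 5 genes, with Alas2 at the floor) summed to 917 and 3502 in dKO and to 59.6 and 119 in WT. The B cell list (3 of 7 genes, with Ms4a1 and Pax5 at the floor) summed to 85.5 and 326 in dKO and to 167 and 155 in WT. Xist, which marks female cells, did not exceed the floor in dKO and was at least 26.1-fold higher in WT. The Y-linked Eif2s3y did not exceed it in WT and was at least 18.5-fold higher in dKO. Sex and genotype therefore cannot be told apart in any value below.

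The 6 caspases gave no call between dKO and WT cells. Casp8 read lower, and Casp1 and the second probe of Casp4 read higher, in dKO within both replicate numbers, each by a log2 difference of 0.40 to 0.43 in size. Casp2 and Casp9 lay nearer to 0, and Casp6 and the first Casp4 probe took opposite signs in the 2 replicate numbers. In a limma fit across all 14673 probes above the floor, 0 of the 10 caspase probes were called at an adjusted p (Benjamini-Hochberg) of 0.05, with an adjusted p of 0.9999 for each. Across all probes the same fit called 0.00% higher and 0.00% lower, and 480 (3.27%) had an unadjusted p under 0.05, against 0 of the 10 caspase probes. Within a replicate number the dKO and WT arrays share 1 distribution and so had been normalized jointly, so a fit with the number as a block was run beside it. That fit called 0.157% of all probes higher and 0.0750% lower and again 0 caspase probes, whose adjusted p in limma ran from 0.331 to 0.991. In the blocked fit 3 of the 10 caspase probes (Casp1 and both of Casp8) had an unadjusted p under 0.05, against 1729 (11.8%) of all probes. With 2 arrays a group, an exact two-sided permutation test cannot go below 0.333.

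**Figure D1:**
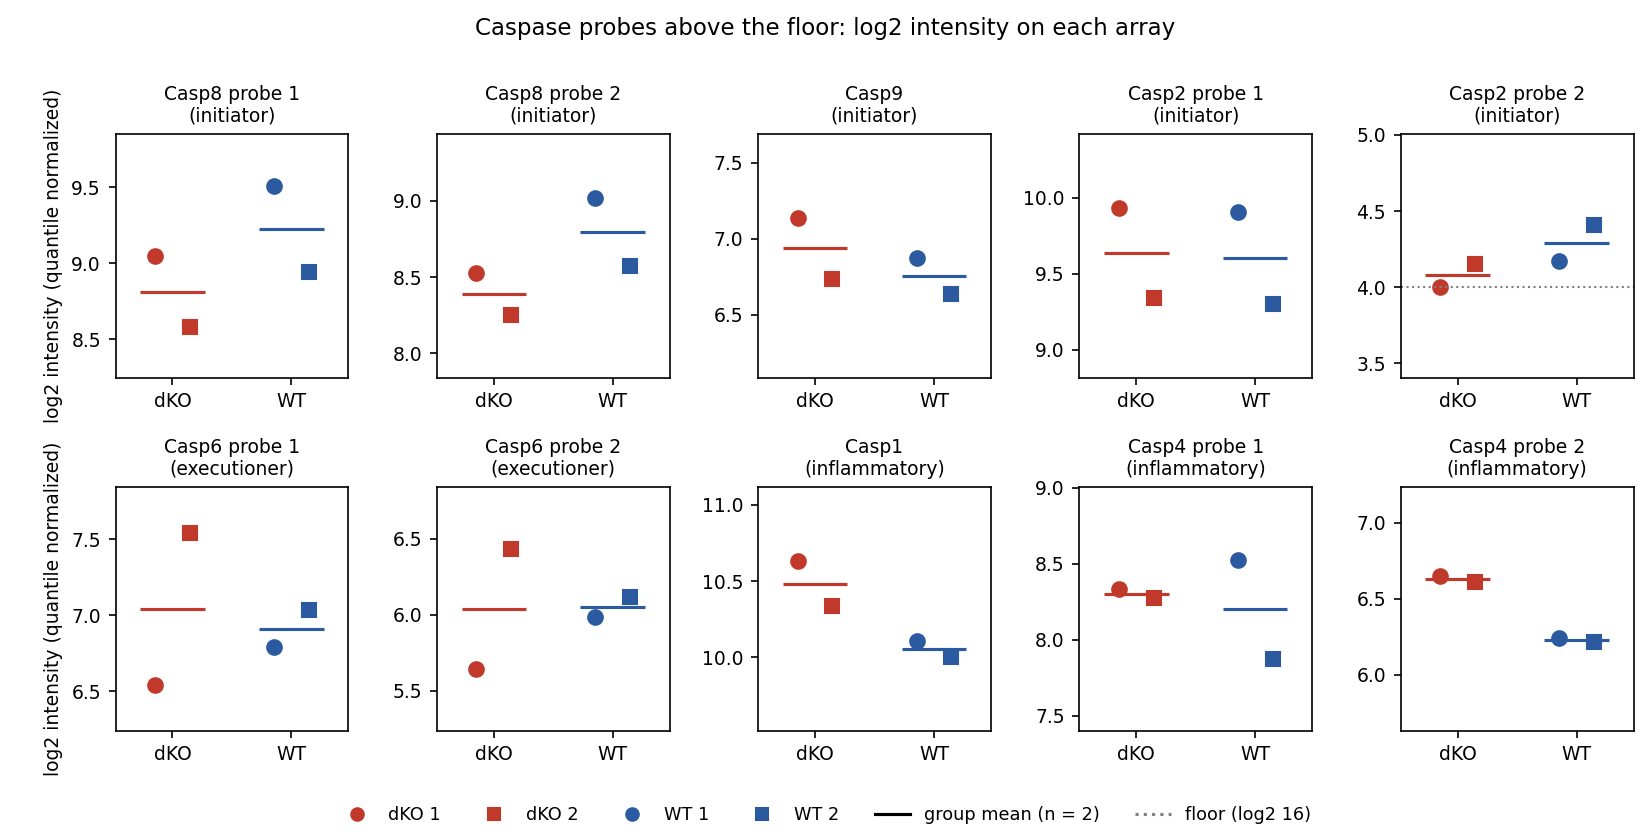
Each panel shows 1 caspase probe above the floor, with the quantile normalized log2 intensity (vertical axis, spanning the same number of units in every panel) of dKO 1 and dKO 2 in red and WT 1 and WT 2 in blue, circles for replicate number 1, squares for number 2, and a bar at each group mean (n = 2). Both Casp1 points and both points of Casp4 probe 2 in dKO lie above the WT points, while the Casp8 points of each number lie lower in dKO than in WT.

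Casp8 starts apoptosis from death receptors and holds back necroptosis, a lytic death that runs through Ripk3 and Mlkl. It had 2 probes, both above the floor on all 4 arrays. The first (ILMN_1243876) had deposited intensities of 452 (dKO 1) and 445 (dKO 2), and of 622 (WT 1) and 576 (WT 2). The second (ILMN_3097868) read 319 and 350 on the dKO arrays against 444 and 442 on the WT arrays. On this deposited scale both probes lay lower on each dKO array than on either WT array. Quantile normalization over the 4 arrays set number 2 below number 1 for these bright probes, and the first probe then overlapped between the groups (dKO 1 at 9.04 against WT 2 at 8.94, log2 intensity) while the second did not.

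Mean log2 intensity of the first Casp8 probe was 8.81 ± 0.33 for dKO cells and 9.23 ± 0.40 for WT cells (SD, n = 2 each), a log2 difference of −0.41 with a 95% interval of −1.18 to 0.35 from limma. The second was at 8.39 ± 0.19 and 8.80 ± 0.32 (SD, n = 2 each), a difference of −0.41 with an interval of −1.04 to 0.23. Both probes thus gave dKO over WT ratios of 0.751 and 0.754. Within replicate number 1 the 2 probes differed by −0.47 and −0.49, and within number 2 by −0.36 and −0.32. The 2 probes measure 1 gene on the same RNA and are not independent. With the replicate block the intervals were −0.74 to −0.09 and −0.75 to −0.06, on 1 residual degree of freedom and before adjustment over all probes. Neither passed in limma, with an adjusted p of 0.9999 without the block and of 0.337 and 0.355 with it. Across all probes above the floor, 18.3% were at least as far apart as the first Casp8 probe in either direction, so a difference of this size was common in these arrays.

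Casp9, which is activated on the apoptosome when cytochrome c leaves the mitochondria, had 4 probes, of which 1 (ILMN_1217061) exceeded the floor. It read 126 (dKO 1) and 119 (dKO 2) against 105 (WT 1) and 110 (WT 2), higher on both dKO arrays on the deposited scale. After normalization the groups overlapped, at a log2 difference of 0.18 (6.94 ± 0.28 for dKO cells and 6.75 ± 0.17 for WT cells, SD, n = 2 each), with 0.26 in number 1 and 0.10 in number 2. The limma interval of −0.58 to 0.95 includes differences larger than any measured among the caspases. The other 3 Casp9 probes and the third Casp4 probe (ILMN_2811746) read between 0.266 and 14.9 on all arrays and were not tested.

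Casp2, which the adaptor Pidd1 can activate and which has been tied to DNA damage and to errors in chromosome number, had 1 bright and 1 dim probe. The bright probe (ILMN_2637266) read 826 and 758 on the dKO arrays against 814 and 738 on the WT arrays. Within each replicate number the groups read nearly the same, with a log2 difference of 0.03 overall (0.02 in number 1 and 0.04 in number 2). Its limma interval of −0.82 to 0.88 takes in the step between the numbers, −0.59 from dKO 1 to dKO 2 and −0.61 from WT 1 to WT 2 after normalization. With the replicate block the interval was −0.28 to 0.34. The dim probe (ILMN_1228387), made for another cDNA of the gene, read 10.0 and 18.7 in dKO against 17.1 and 22.5 in WT, under the floor on dKO 1 and just above it elsewhere. Its difference of −0.21, opposite in sign to the bright probe, is set by the floor and was −0.54 at a floor of 8.

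Casp6 is an executioner known for cutting lamin A. Its first probe (ILMN_2923865) read 83.8 (dKO 1) and 210 (dKO 2) against 99.4 (WT 1) and 147 (WT 2). Its second (ILMN_2923864) read 45.8 and 95.8 in dKO against 57.4 and 76.6 in WT. The 2 WT arrays lay between the 2 dKO arrays for both probes. The spread within dKO was the widest of the family: dKO 2 exceeded dKO 1 by 1.00 and 0.79 on the log2 scale, and WT 2 exceeded WT 1 by 0.25 and 0.13. The difference between dKO and WT was −0.25 and −0.34 within number 1 and 0.50 and 0.31 within number 2, with means of 0.13 and −0.01. No direction can be given for Casp6, and its limma intervals (−0.97 to 1.23 and −1.06 to 1.04) reach past a 2-fold increase. The 2 probes followed each other across the arrays. The myeloid marker sum also differed between the dKO arrays (922 and 2422, as above), and their part in the Casp6 values was not tested.

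Casp1, the core protease of inflammasomes, matures interleukin 1 beta and interleukin 18 and cuts gasdermin D. Its only probe (ILMN_1247592) read 1326 (dKO 1) and 1547 (dKO 2) against 932 (WT 1) and 1207 (WT 2). Both dKO arrays lay above both WT arrays, on the deposited and on the normalized scale. Mean log2 intensity was 10.48 ± 0.21 for dKO cells and 10.05 ± 0.08 for WT cells (SD, n = 2 each), a difference of 0.43 with a limma interval of −0.06 to 0.92, or 1.35-fold. Replicate number 1 gave 0.52 and number 2 gave 0.34, and the interval with the block was 0.11 to 0.75. The limma adjusted p was 0.9999, and 0.331 with the replicate block, the lowest of the family. Casp1 is abundant in myeloid cells. The myeloid and dendritic list (14 of 18 genes above the floor) had a median log2 difference of 0.63, with 0 in number 1 and 1.30 in number 2. In that list, 4 genes were higher and 2 lower in dKO without overlap. Those counts are 28.6% and 14.3%, against 13.3% and 14.0% of all genes above the floor, and are not read as a result. The macrophage genes Adgre1, Csf1r, C1qb and C1qc were higher within both replicate numbers (1.23 and 2.23, 0.64 and 1.35, 0.45 and 2.71, 0.33 and 2.29). S100a8, S100a9, Clec7a, C1qa and Cd14 were under the floor on dKO 1 and WT 1 and were higher in dKO within number 2 only. Fcer1g took opposite signs (−0.07 and 1.04). The dendritic cell genes Siglech and Clec9a were lower within both (−2.28 and −1.23, −0.61 and −0.71), as was Mpeg1 (−1.03 and −0.34), and Lyz2 took opposite signs (−0.84 and 2.12). Their part in the Casp1 value was not tested. In bulk RNA of sorted cells, a change in how many cells of a type were present and a change in RNA per cell cannot be told apart.

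Casp4, the mouse gene also known as caspase-11, senses lipopolysaccharide in the cytosol and cuts gasdermin D. It had 3 probes, of which 2 exceeded the floor. The first of these (ILMN_2811737) read 281 and 355 in dKO against 319 and 267 in WT. The second (ILMN_1254655) read 90.2 and 109 in dKO against 68.3 and 82.1 in WT. The first overlapped between the groups, at −0.20 in number 1 and 0.40 in number 2, while the second lay above WT on both dKO arrays, at 0.41 and 0.40. The second probe had the tightest groups of the family, 6.63 ± 0.03 for dKO cells and 6.23 ± 0.02 for WT cells (log2 intensity, SD, n = 2 each), and they differed by 0.40 or 1.32-fold. Its limma interval, which borrows its spread from other probes of like intensity, was −0.32 to 1.13. The limma adjusted p was 0.9999, and 0.502 with the block. Both probes differed by 0.40 within number 2, and only within number 1 did their signs differ.

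**Figure D2:**
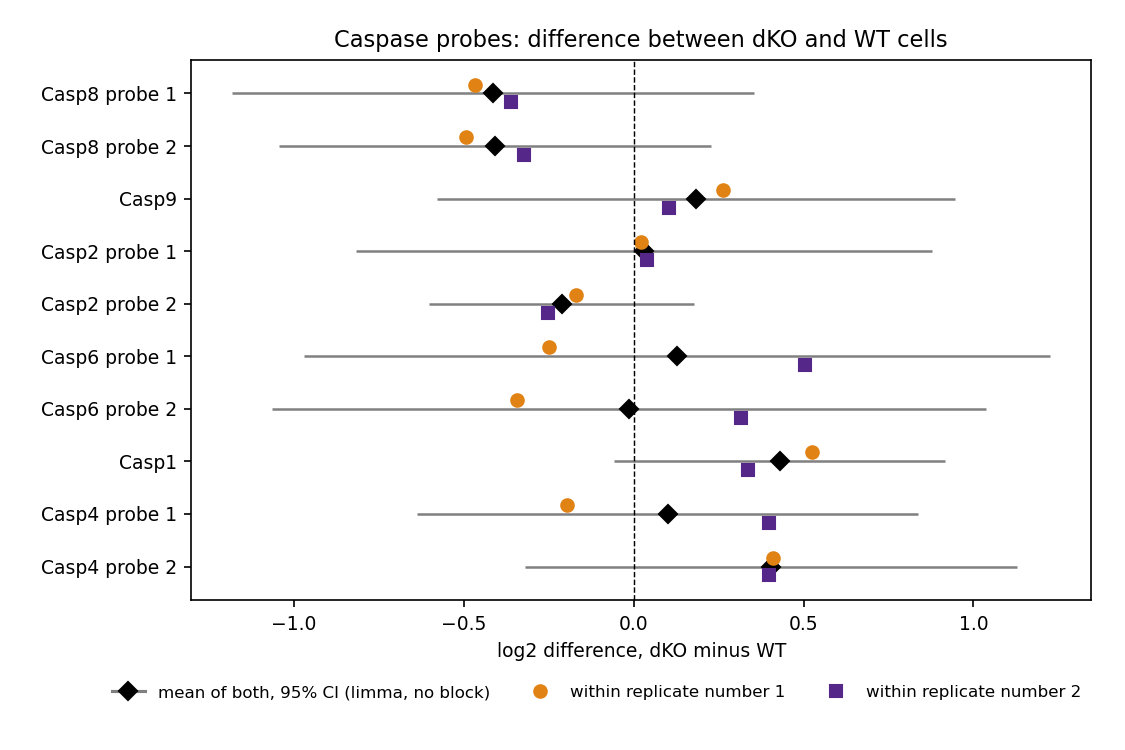
Log2 difference between dKO and WT for each caspase probe above the floor (horizontal axis), as the mean of both replicate numbers with the 95% interval from limma (black diamond and grey line), within number 1 (orange circle) and within number 2 (purple square). All 10 of these intervals, from the fit without the block, include 0; Casp8 is below 0 and Casp1 and Casp4 probe 2 are above 0 in both numbers, while the Casp6 probes and Casp4 probe 1 lie on opposite sides of 0.

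Over the family, 2 of the 10 probes lay higher on both dKO arrays than on both WT arrays after normalization (Casp1 and the second Casp4 probe) and 2 lower (the second Casp8 probe and the dim Casp2 probe). The shares over all probes above the floor were 11.9% higher and 14.2% lower, and at 10 probes these counts are not read as a result. On the deposited scale, 3 caspase probes were higher without overlap and 2 lower, against 9.21% and 13.1% of all probes. Within replicate numbers, 4 probes were higher in both and 3 lower in both, against 25.7% and 27.8% of all probes, and nothing is read from these counts either. The median log2 difference was 0.07 over the 10 probes and 0.00 over all probes above the floor.

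Levels of different probes cannot be set against each other on an array, because each probe binds with its own strength. By role, in WT cells the initiators Casp8, Casp2 and Casp9 had at least 1 probe above the floor on both arrays, at a mean log2 intensity of 9.23, 9.60 and 6.75 for the brightest probe of each. The executioner Casp6 was at 6.91, and the inflammatory Casp1 and Casp4 at 10.05 and 8.20. The floor lies at 4 on this scale. Outside the 6 genes, Casp12 (3 probes) and Casp14 (1 probe), which is a caspase of the skin, were below the floor on all 4 arrays, with a highest reading of 10.3.

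Casp1 and Casp4 lie next to each other on mouse chromosome 9, and the next coding gene is Casp12, which stayed below the floor. Casp8 lies beside Cflar, which encodes its inhibitor. Starts of the 6 genes in the RefSeq annotation (GRCm38.p6) differ in base composition. In the 250 bases upstream, Casp1 has 1 CpG, Casp4 has 3, Casp8 has 5, Casp6 has 11, Casp2 has 17 and Casp9 has 25, where the median of 32851 such windows is 6. The 2 inflammatory caspases therefore have fewer CpGs than the other members. The windows of the neighbours Casp1 (chr9:5298267-5298516, plus strand) and Casp4 (chr9:5308599-5308848, plus strand) and of Casp8 (chr1:58802252-58802501, plus strand) are shown because these genes gave the 3 largest differences in size. Capitals mark matches to a form of the NF-kB motif, GGG followed by TTTCC after 2 free bases.
Casp1: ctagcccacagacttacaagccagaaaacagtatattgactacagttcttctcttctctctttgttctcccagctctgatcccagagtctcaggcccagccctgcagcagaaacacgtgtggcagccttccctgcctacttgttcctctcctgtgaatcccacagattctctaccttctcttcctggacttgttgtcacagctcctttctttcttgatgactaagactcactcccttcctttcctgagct
Casp4: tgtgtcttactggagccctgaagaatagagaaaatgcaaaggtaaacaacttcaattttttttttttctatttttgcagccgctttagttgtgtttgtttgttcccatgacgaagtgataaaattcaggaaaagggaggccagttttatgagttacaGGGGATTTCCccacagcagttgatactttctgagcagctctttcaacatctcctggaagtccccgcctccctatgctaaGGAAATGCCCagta
Casp8: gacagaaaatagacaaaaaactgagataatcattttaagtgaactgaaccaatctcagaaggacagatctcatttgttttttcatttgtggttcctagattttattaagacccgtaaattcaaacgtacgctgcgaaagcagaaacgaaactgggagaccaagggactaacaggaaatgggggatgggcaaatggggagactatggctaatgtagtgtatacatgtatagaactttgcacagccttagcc
Both strands were searched for this motif, for 2 interferon motifs (GAAA repeated after 2 free bases, and TTC followed by GAA after 3 free bases) and for the E2F motif TTTCCCGC, all chosen after the windows had been read. Casp4 has 2 separate NF-kB matches, GGGGATTTCC and, on the other strand, GGAAATGCCC, and 1.41% of all windows hold at least 1 and 0.0244% at least 2. Neither interferon motif is found in the windows of the 6 genes, against 2.98% and 7.02% of all windows. The E2F letters occur once, in Casp2, and in 0.895% of all windows. No matches of different motifs overlap in these windows.

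Genes that act around the caspases were read from 8 lists of 73 genes, 51 of them with a probe above the floor, each represented by its brightest. The median log2 difference of all 8285 genes above the floor was 0.01. Limma called 0 of the 51 higher and 0 lower, and 0 with the replicate block, where the lowest adjusted p was 0.0831. At an unadjusted p under 0.05 in limma there were 2 higher (Il18 and Tnfrsf25) and 3 lower (Fasl, Ifit3 and Isg15), against 3.27% of all probes. Groups did not overlap for 13.7% of the 51 in the higher and 13.7% in the lower direction, against 13.3% and 14.0% of all 8285 genes above the floor.

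**Figure D3:**
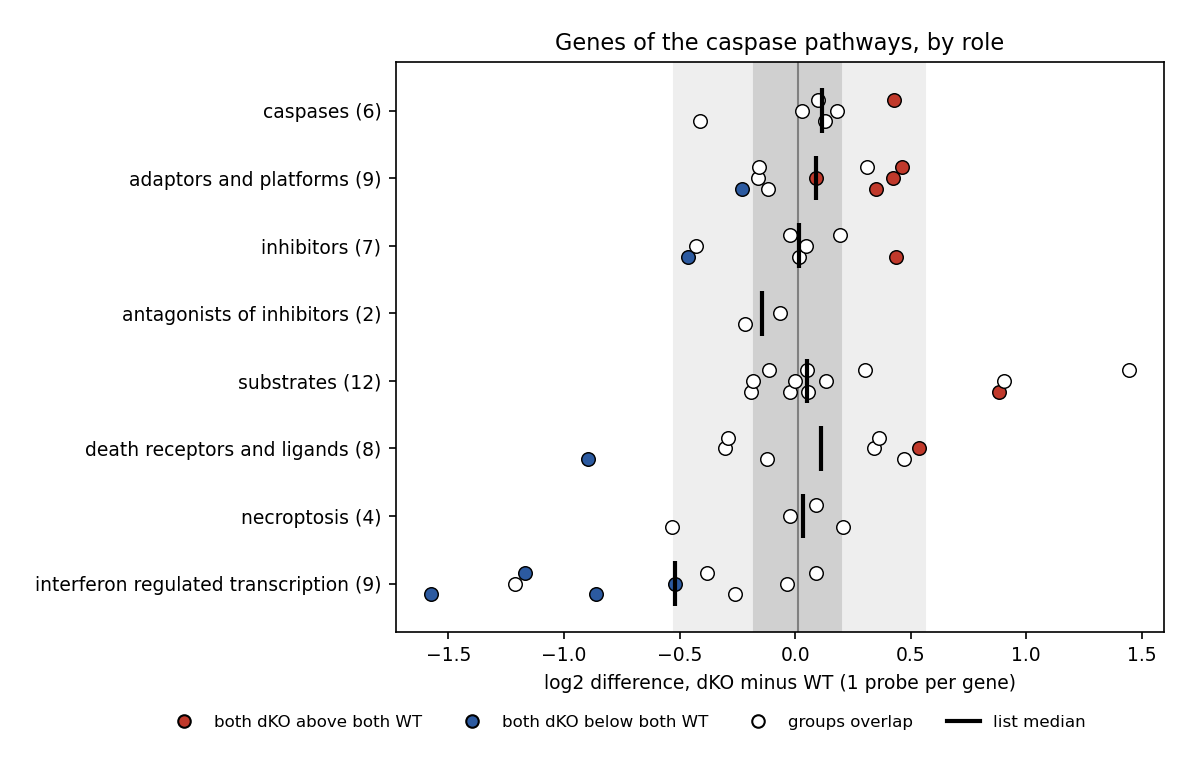
Log2 difference between dKO and WT (horizontal axis) of every gene above the floor in each list, with the number of genes in parentheses, filled red where both dKO arrays lie above both WT arrays and blue where both lie below, and a bar at the list median. Grey bands give the middle 50% and 90% of all genes above the floor (−0.18 to 0.20 and −0.52 to 0.56); the interferon list has the lowest median, −0.52, while the caspase median is 0.11.

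Upstream of Casp8, the death receptor list (8 of 8 genes above the floor) had a median log2 difference of 0.11, with 1 gene higher and 1 lower without overlap. These are 12.5% each, against 13.3% and 14.0% of all genes above the floor. Fasl, the ligand that kills through Fas, read 41.4 and 67.4 in dKO against 90.2 and 105 in WT, a log2 difference of −0.89. Fas itself differed by −0.29, with overlap. Tnfrsf25, a death domain receptor that costimulates T cells, read 532 and 718 against 377 and 481, a difference of 0.54 with no overlap. Fasl is also made by CD8 T cells and NK cells. Their markers, summed together, were lower in dKO (above), while Cd8b1 alone differed by −0.16 with overlap. The part of these cells in the Fasl value was not tested. Tnfrsf10b, the mouse receptor for TRAIL, differed by 0.37 with overlap.

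Cflar, which encodes c-FLIP, a caspase-like protein without protease activity that controls Casp8, read 217 (dKO 1) and 384 (dKO 2) against 189 (WT 1) and 238 (WT 2). It differed by 0.43 after normalization with no overlap (0.21 in number 1 and 0.66 in number 2), but overlapped on the deposited scale. Casp8 beside it on the chromosome differed by −0.41. Limma gave Cflar an adjusted p of 0.9999, and 0.421 with the block. The inhibitor list had 7 of 11 genes above the floor and a median of 0.02. Naip5, a sensor of bacterial flagellin, differed by −0.46 with no overlap, Pea15a by −0.43 and Birc5, which also serves in cell division, by 0.19, both with overlap. Of the antagonists of inhibitors, Htra2 differed by −0.22 and Diablo by −0.07. Of the 4 necroptosis genes, none was without overlap, and Ripk3, Mlkl, Zbp1 and Cyld differed by 0.21, −0.02, −0.53 and 0.09.

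Adaptors and platforms had 9 of 16 genes above the floor and a median of 0.09, with 4 higher and 1 lower without overlap. The shares over all 8285 genes above the floor were 13.3% and 14.0%, and at 9 genes these counts are not read as a result. Apaf1, the scaffold of the apoptosome that activates Casp9, read 344 and 457 in dKO against 268 and 325 in WT, a difference of 0.42. Cycs, cytochrome c, differed by 0.35. Pycard, the adaptor that joins Casp1 to inflammasome sensors, read 131 and 130 against 90.7 and 99.2, a difference of 0.46 close to the 0.43 of Casp1. All 3 lay above WT on both dKO arrays, and the limma adjusted p with the block was 0.348 for Apaf1, 0.456 for Cycs and 0.430 for Pycard. Mefv, an inflammasome sensor, differed by 0.31 and exceeded the floor on 1 array. The fourth gene higher without overlap was Fadd, the adaptor of Casp8, at 0.09, and the lower one was Nod1, at −0.23, both named after their values were seen. Both overlapped on the deposited scale. Fadd read 155 and 199 in dKO against 146 and 186 in WT, and Nod1 read 285 and 442 against 334 and 516. The sensors Nlrp3, Nlrc4 and Nlrp1a, with Cradd and Casp8ap2, were at the floor on all arrays.

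Among substrates (12 of 16 genes above the floor, median 0.05), Il18, matured by Casp1, read 31.7 and 41.5 in dKO against 22.2 and 16.6 in WT, a difference of 0.88 with no overlap. Il1b read 59.3 on dKO 1, 517 on dKO 2, 22.6 on WT 1 and 183 on WT 2. It differed by 1.44 in number 1 and 1.45 in number 2, with far larger steps between the numbers, and overlapped between the groups. Gsdmd, which forms the pyroptosis pore, differed by 0.30 and 0.31 in the 2 numbers, also with overlap. Lmna, the lamin that Casp6 cuts, read 92.8 and 491 against 66.7 and 190. With the replicate block limma gave adjusted p values of 0.0862 for Il1b, 0.289 for Lmna, 0.297 for Il18 and 0.465 for Gsdmd. Il1b and Il18 are made largely by myeloid cells. The myeloid and dendritic list had a median log2 difference of 0 in number 1 and 1.30 in number 2. In that list Csf1r and Adgre1 differed by 1.00 and 1.73 and Siglech and Clec9a by −1.75 and −0.66, all without overlap. Siglech overlapped on the deposited scale, and Mpeg1 differed by −0.69 with overlap. The part of myeloid and dendritic cells in the cytokine values was not tested.

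Casp1 and Casp4 are known to be induced by interferons, so interferon regulated genes were read beside them. Of 9 genes above the floor in that list of 11, 4 were lower without overlap (Ifit3, Isg15, Irf7 and Stat2) and 0 higher. Among all 8285 genes above the floor, 14.0% were lower and 13.3% higher without overlap. The median log2 difference of the list was −0.52. Isg15 read 37.8 and 81.3 in dKO against 115 and 236 in WT, and Ifit3 read 141 and 254 against 438 and 404. They differed by −1.58 and −1.17, and Irf7 and Irf8 by −0.86 and −1.21, the last with overlap. Siglech, a marker of plasmacytoid dendritic cells, read 45.6 and 236 in dKO against 213 and 572 in WT, and Clec9a, under the floor in dKO, read 10.8 and 10.5 against 22.9 and 28.0. The summed CD8 and NK cell markers were also lower in dKO (1933 and 2276 against 3221 and 2778), while Cd8b1 alone overlapped. The part of all these cells in the interferon values was not tested. Of Isg15, Ifit3, Irf7 and Irf8, none was called by limma (adjusted p 0.9999 for each, and 0.0831 to 0.332 with the block). The rest of the list above the floor, named after the values were seen, differed by −0.52 (Stat2), −0.38 (Mx1), −0.26 (Irf9), −0.03 (Irf1) and 0.09 (Irf2). Casp1, at 0.43, and the 2 Casp4 probes, at 0.10 and 0.40, had the opposite sign to Isg15, Ifit3, Irf7 and Irf8. Those 4 were picked from the list by unadjusted p in these same data. Whether the difference in sign exceeds chance was not tested.

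The gene whose values over the 4 arrays lay closest to each member was sought among 6889 genes above the floor on all arrays, by the root mean square difference of centred log2 values. It was Rexo1 for Casp8 (0.0159), Mrps35 for Casp9 (0.00366), Ahctf1 for Casp2 (0.00560), Ppp1r3f for Casp6 (0.0213), Rbm8a for Casp1 (0.0144) and Leprot for Casp4 (0.0174). Over 4 arrays this likeness is a description only. Rexo1 read 45.2 and 38.4 in dKO against 63.0 and 50.3 in WT, a log2 difference of −0.44, and Rbm8a read 68.8 and 68.8 against 47.7 and 54.3, a difference of 0.44. Ppp1r3f had the same crossing as Casp6, at −0.24 in number 1 and 0.56 in number 2.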

How the data were processed

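Total RNA was labelled as biotinylated cRNA and hybridised to Illumina arrays, per the labels' protocols. The authors deposited linear probe intensities. The software and normalization behind them are not given in the sources used here. Values below 0 show that a background had been subtracted, and the dKO and WT arrays of a replicate number share 1 distribution (sorted values differ by at most 0.0846 in number 1 and 0.0793 in number 2), while dKO 1 and dKO 2 differ by up to 6979. A table with 8 columns of signal and detection p was not used, because its column names match no label.

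Intensities under 16 were set to 16, then log2 was taken and all 4 arrays were quantile normalized. Probes above the floor on at least 1 array (14673) were fitted by genotype with limma 3.58.1 in R 4.3.3 (lmFit, eBayes with a trend, two-sided, 2 residual degrees of freedom, 1 with the block), and p-values were adjusted over all of them. The number of arrays limits the precision. GEO's platform annotation named 1 gene for 34885 probes, more than 1 for 18 and no gene for 10378, and 34807 were matched by Entrez ID to RefSeq (GRCm38.p6). All 6 members had a promoter window. In lists, a gene is its brightest probe.

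Named genes are all caspase probes, Map3k3, up to 4 genes of each list by unadjusted p, the closest gene of each member and the markers. Members and lists were chosen with earlier results of these data known. The alternatives changed the floor, the normalization, the filter, the unit tested, the variance model, the block and the arrays used.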

Additional observations from a re-analysis of the deposited data

How the results depend on the processing

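Caspase probes were called by limma 0 times in 16 alternatives, in either direction. Of 150 caspase values under them, 143 kept their sign. All 7 that took another sign came from leaving out 1 array, in probes that differed by less than 0.20. Leaving out each array in turn, the log2 difference ran from −0.017 to 0.38 for Casp9 (negative without dKO 1) and from −0.27 to 0.34 for the bright Casp2 probe (negative without dKO 1 and without WT 2). It ran from −0.22 to 0.43 for the first Casp4 probe (negative without WT 2), from −0.37 to 0.63 for the first Casp6 probe (negative without dKO 2) and from −0.40 to 0.38 for the second (positive without dKO 1 and, at 0.05, without WT 2). Over all alternatives the difference of Casp1 ran from 0.29 to 0.57, of the second Casp4 probe from 0.34 to 0.42, of the dim Casp2 probe from −0.54 (floor 8) to −0.08 (without WT 2), and of the 2 Casp8 probes from −0.69 to −0.13 and from −0.62 to −0.19. A lone remaining array is assumed to vary like the other group.

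Over all probes, limma called 0 with any array left out, at floors of 8 and 32, on the authors' values, with a filter for the floor on every array, with 1 probe per gene, without trend and with robust eBayes. It called 3 higher and 2 lower with log2(signal + 16) and 3 and 3 with medians equalized. With the replicate block it called 23 higher and 11 lower, 36 and 34 on the authors' values, and 10 and 5 with 1 probe per gene. The cause was not tested. Arrays of 1 number deviated together (correlation 0.519), and the labels name no pairing. Without a filter the model could not be fitted. Signal near background limits the dim probe of Casp2 and leaves 4 caspase probes unmeasured.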
